A study of Mus musculus with 12 samples.

Results

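Promoter methylation of neurotransmitter receptor genes was examined in the colon epithelium of mice with induced Dnmt3b and of control mice. The genes were taken by symbol: Gria, Grin with a digit, Grik, Grid with a digit and Grm (glutamate receptors), Gabr and Gabbr (GABA receptors), Glra (glycine), Chrn and Chrm (acetylcholine), Htr with a digit (serotonin), Drd (dopamine), and Adra and Adrb (adrenergic). The rule found 69 of the 12098 genes listed in the deposited tables. Of these 66 encode receptors or receptor subunits, and 3 share only the prefix: Adrbk1 and Adrbk2, G protein-coupled receptor kinases, and Grid2ip, a synaptic scaffold protein. The rule itself uses no methylation value, though it was set with earlier results of these data known.

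Colonic epithelial cells of C57BL/6 mice were the DNA source, and methylation was read by reduced representation bisulfite sequencing. In that assay the enzyme MspI cuts at CCGG, CpG-rich fragments are kept by size, and bisulfite turns unmethylated cytosine into a base read as thymine. Dnmt3b, a DNA methyltransferase that methylates previously unmethylated CpGs, was induced in 3 mice by doxycycline water at 0.5 g/l, given over 3 months and made fresh every 3 days, while 3 control mice drank regular water. Each of the 6 mice gave a short-fragment (40 to 120 nt) and a long-fragment (120 to 220 nt) library. The labels state neither which cells carry the inducible gene, nor whether the control mice carry it, nor age or sex. Doxycycline was given to the induced mice alone, so the drug and the induction cannot be told apart.

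A value is the mean CpG methylation of a gene's RefSeq promoters, given here in percent, and differences are in percentage points, induced minus control. Libraries listed 10358 to 10838 genes in the short and 7278 to 8108 in the long fraction. The tables give no read counts, so the depth behind a level is unknown, and a listed 0% could come from few reads. The DNA is from bulk cells: more methylated cells and more methylated CpGs per cell cannot be told apart. Mean methylation of X-linked promoters was 52.7% to 55.2% in induced mice and 35.3%, 5.37% and 34.4% in control mice 1, 2 and 3 in the short fraction. Control mouse 2 stood as low in the long fraction (5.79%, against 39.2% in both other control mice), which touches the 4 receptor genes on the X chromosome.

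Neurotransmitter receptors fall into ion channels that open when the transmitter binds and receptors that signal through G proteins. The channel subunits are grouped by transmitter into AMPA, NMDA, kainate and delta glutamate receptors, GABA-A, glycine and nicotinic acetylcholine receptors. Most are made chiefly in neurons, while a few, such as the muscarinic receptor Chrm3, also act in epithelial or other non-neuronal cells. Promoters rich in CpG are usually unmethylated in normal tissue whether or not the gene is used, and methylation of such a promoter is commonly found with a silent gene.

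The start regions of 6 receptor genes show the sequence context of the contrasts described below. Each window holds 300 bases, 250 before and 50 after a RefSeq gene start in build GRCm38.p6, written 5′ to 3′ on the strand of the gene. Capitals mark each CpG, the dinucleotide that is methylated; a CpG inside the MspI site CCGG reads cCGg. The sources used here do not give the build or the promoter window of the deposited tables, so a window need not be the stretch that was measured. Gabbr2 and Gabbr1 encode the partner subunits of the GABA-B receptor, and their promoters had unlike levels in induced mice. Gabbr2 lies at chr4:46991665-46991964 on the minus strand, with 46 CpGs and 5 CCGG sites, and Gabbr1 at chr17:37045716-37046015 on the plus strand, with 18 CpGs and 2 CCGG sites.
Gabbr2: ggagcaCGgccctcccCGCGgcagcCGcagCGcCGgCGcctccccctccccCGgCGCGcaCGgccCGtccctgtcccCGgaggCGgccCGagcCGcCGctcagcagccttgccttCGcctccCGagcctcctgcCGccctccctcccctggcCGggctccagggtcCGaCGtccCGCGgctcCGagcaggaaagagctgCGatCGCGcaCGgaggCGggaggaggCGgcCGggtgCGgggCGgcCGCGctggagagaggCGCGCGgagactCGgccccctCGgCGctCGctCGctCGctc
Gabbr1: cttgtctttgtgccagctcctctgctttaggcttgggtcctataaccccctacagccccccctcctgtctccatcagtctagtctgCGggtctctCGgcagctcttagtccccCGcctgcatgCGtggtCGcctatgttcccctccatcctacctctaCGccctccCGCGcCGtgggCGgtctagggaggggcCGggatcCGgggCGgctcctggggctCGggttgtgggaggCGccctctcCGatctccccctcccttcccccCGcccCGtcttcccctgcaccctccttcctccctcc

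Chrm3 is shown as a promoter near 0% in control mice with little difference between the groups, and Chrna1, a muscle acetylcholine receptor subunit, as one that was methylated in every mouse. The Chrm3 window (chr13:10360754-10361053, minus strand) holds 11 CpGs and 0 CCGG sites, and the Chrna1 window (chr2:73580289-73580588, minus strand) 7 CpGs and 1 CCGG site.
Chrm3: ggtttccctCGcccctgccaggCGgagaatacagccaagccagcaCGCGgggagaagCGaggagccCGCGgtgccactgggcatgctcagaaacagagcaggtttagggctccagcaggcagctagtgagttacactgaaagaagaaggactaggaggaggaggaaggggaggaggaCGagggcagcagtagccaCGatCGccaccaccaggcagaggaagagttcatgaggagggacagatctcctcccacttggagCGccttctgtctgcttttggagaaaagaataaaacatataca
Chrna1: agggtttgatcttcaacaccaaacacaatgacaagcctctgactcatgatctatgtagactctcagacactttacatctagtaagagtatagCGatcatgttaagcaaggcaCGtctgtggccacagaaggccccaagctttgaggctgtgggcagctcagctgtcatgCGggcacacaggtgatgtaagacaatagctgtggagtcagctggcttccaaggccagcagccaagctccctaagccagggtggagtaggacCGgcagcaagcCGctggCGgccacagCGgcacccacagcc

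Adra2a and Grin2c, 2 of 27 receptor genes, passed a test, described below, of whether the change differed between the size fractions. Of all 5309 genes in that test 4.71% passed, and neither call held when any single control mouse was left out. The Adra2a window (chr19:54045009-54045308, plus strand) holds 28 CpGs and 5 CCGG sites, and the Grin2c window (chr11:115267194-115267493, minus strand) 22 CpGs and 5 CCGG sites.
Adra2a: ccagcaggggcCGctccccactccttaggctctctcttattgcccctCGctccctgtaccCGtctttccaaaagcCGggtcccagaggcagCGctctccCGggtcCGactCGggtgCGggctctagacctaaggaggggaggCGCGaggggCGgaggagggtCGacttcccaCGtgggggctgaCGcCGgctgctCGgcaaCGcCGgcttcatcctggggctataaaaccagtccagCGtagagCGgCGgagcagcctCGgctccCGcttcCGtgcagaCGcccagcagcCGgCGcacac
Grin2c: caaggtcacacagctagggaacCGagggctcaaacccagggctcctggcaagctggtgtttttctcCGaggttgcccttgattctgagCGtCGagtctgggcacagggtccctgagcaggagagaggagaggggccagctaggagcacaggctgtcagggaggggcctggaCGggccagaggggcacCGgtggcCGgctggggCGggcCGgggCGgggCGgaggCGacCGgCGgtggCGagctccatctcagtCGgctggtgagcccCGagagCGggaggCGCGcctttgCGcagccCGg

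CCGG and CG read the same on both strands, and every CCGG contains a CG. Over the 32851 RefSeq start windows of this length 52.78% held at least 1 CCGG and 94.57% at least 1 CG, with a median of 7 CGs. A window was found for 50 of the 69 genes (72.5%), below the 80% required here, so the sequence content of the genes that rose was not compared with that of the others. A count of 0 CCGG in the Chrm3 window says only that these letters are not in it.

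Most receptor promoters were nearly unmethylated in control mice and largely methylated in induced mice. In the short fraction 55 of the 69 genes had a value in all 6 libraries, and 43 of these rose and 0 fell at an adjusted p under 0.05 (limma over all genes of the fraction, Benjamini-Hochberg). Over all 10027 genes tested, 27.6% rose and 0.0798% fell. Unadjusted p was under 0.05 for 47 of the 55 genes with a higher and for 0 with a lower level in induced mice. In the long fraction 25 of 29 genes rose and 0 fell, against 23.2% higher and 0.0163% lower among the 6127 genes tested. Leaving out either control mouse 1 or control mouse 3 brought the long-fraction count to 14, with 0 lower. Of the genes that were tested in at least 1 fraction, 46 of 57 rose in at least 1. Shares over all genes are not given here for unadjusted p, for fits without 1 mouse or for a rise in at least 1 fraction. Those counts alone therefore do not set receptor genes apart from other genes.

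The mean level over the 55 genes of the short fraction was 57.8%, 57.1% and 65.3% in induced mice 1, 2 and 3, against 9.33%, 8.94% and 10.7% in control mice 1, 2 and 3. Over the 29 genes of the long fraction it was 58.3%, 65.1% and 70.7% in induced mice, against 9.66%, 10.1% and 8.34% in control mice. The lowest induced mouse thus lay far above the highest control mouse in each fraction. The mean difference was 50.4 points among short and 55.3 points among long fragments, where all genes tested differed by 13.01 and 14.2 points. The median difference per gene was 57.7 and 59.4 points, against 0.5 and 0.943 points over all genes tested.

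The gain took most promoters over one range. Of the 43 short-fraction receptor genes under 10% in control mice, 34 (79.1%) had an induced mean of 50% or more, and 4 were still under 10%. Among all genes under 10% in control mice 14.1% reached 50%, and 75.8% were still under 10%. In the long fraction 20 of 22 such receptor genes reached 50%, against 14.8% of all such genes. Induced means of the genes that rose ran from 23.2% (Adra2a) to 94.4% (Chrnb4) in the short fraction and from 8.32% (Chrm3) to 83.0% (Grin3b) in the long fraction. An induced mean between 50% and 80% was found for 39 of 55 genes and 23 of 29 genes. The share of all genes in that range is not given here. The groups did not overlap, with the induced mice higher, in 47 of 55 genes and 29 of 29 genes, where 39.5% and 38.2% of all genes tested did so. For 0 genes in either fraction were the induced mice all lower, as 0.908% and 0.277% of all genes tested were.

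**Figure D1:**
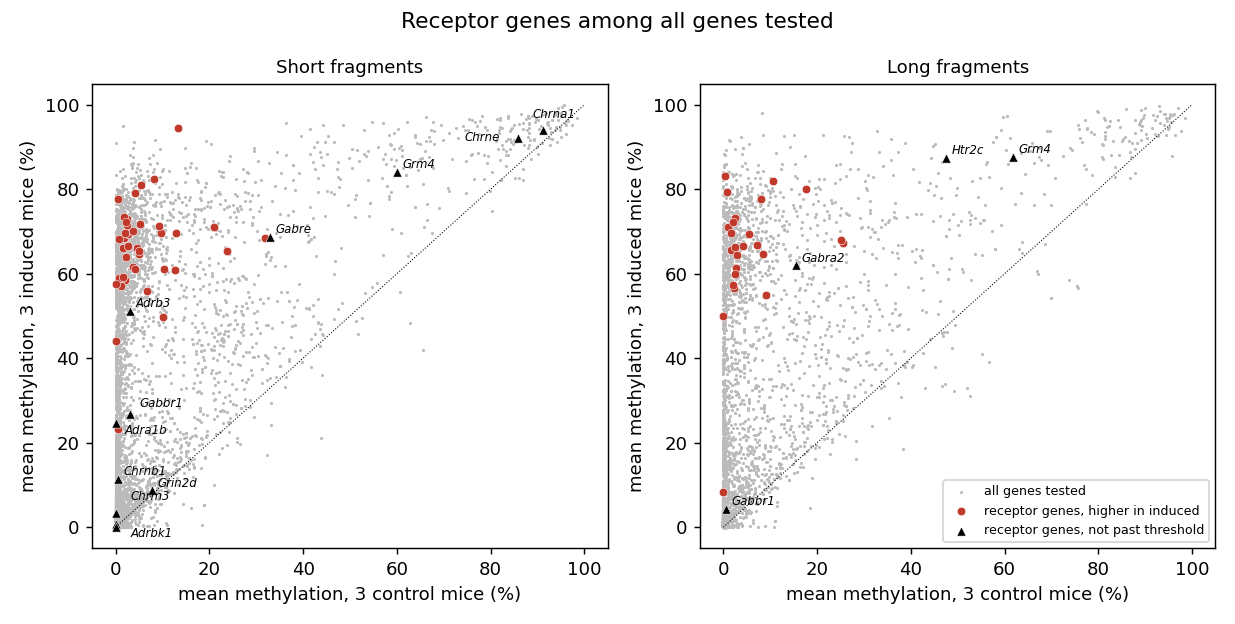
Mean methylation in percent of 3 induced mice (vertical axis) against that of 3 control mice (horizontal axis), for all genes tested (grey) and receptor genes that rose (red) or did not pass the threshold (black). Most red points lie at the left edge, under 10% in control mice and at 50% to 80% in induced mice.

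Induced mice differed among themselves more than control mice did. The median SD over 3 mice was 8.21 points in induced and 1.60 points in control mice over the 55 genes of the short fraction, and 10.2 and 2.30 points over the 29 genes of the long fraction. Over all genes tested it was also larger in induced mice, at 0.657 and 0.150 points in the short and 1.28 and 0.0945 points in the long fraction. Induced mouse 3 had the highest level of the induced mice in 31 of the 43 genes that rose in the short fraction (72.1%) and in 16 of 25 (64.0%) in the long fraction. Among all genes that rose the shares were 58.99% and 59.6%. Single control values stood apart for a few genes, such as Chrnb4 in control mouse 3 and Grm7, Gabra2 and Grin3a of the long fraction in control mouse 2.

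AMPA receptors, which carry fast excitatory transmission, were poorly covered: Gria2 alone of 4 genes had a value in all 6 libraries of a fraction. In the long fraction Gria2 had 62.1%, 51.7% and 69.9% in induced mice, against 7.35%, 0.42% and 0.38% in control mice, a difference of 58.5 ± 5.47 points (SE, n = 3 each; adjusted p = 0.00318). Gria2, the subunit that sets calcium permeability, thus had no overlap between the groups. Gria4 was listed at 42.4% and 73.1% in 2 induced mice and at 0%, 1.47% and 2.49% in control mice in the short fraction. Gria1 had 53.7%, 45.9% and 78.9% in induced mice and 26.6% in the single control library that listed it in the long fraction, and the X-linked Gria3 was listed in 2 induced libraries only (68.7% and 85.4%).

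NMDA receptors pair glycine-binding with glutamate-binding subunits, and 4 of 5 genes tested in the short and 3 of 3 in the long fraction rose. Grin2c, a subunit known from cerebellum, had 71.7%, 77.9% and 83.3% in induced mice, against 1.2%, 0% and 0.42% in control mice in the short fraction (77.1 ± 3.17 points, SE, adjusted p = 0.000277). It was the largest difference but one among the receptor genes of that fraction, after Chrnb4. In that fraction Grin2a started higher, at 65.3% ± 4.07 in induced and 23.7% ± 5.70 in control mice (SD, n = 3 each; adjusted p = 0.00171). The glycine-binding subunit genes Grin3a and Grin3b had 61.5% and 58.6% in induced mice, against 3.79% and 2.01% in control mice (adjusted p = 0.00488 and 0.00118). Grin2d did not pass: it had 8%, 7.69% and 10.6% in induced mice, against 7.64%, 8.20% and 7.19% in control mice (adjusted p = 0.536), so the groups overlapped.

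In the long fraction Grin3b had 78.8%, 100% and 70.4% in induced mice, against 0%, 0% and 1.25% in control mice (82.6 ± 8.39 points, SE, adjusted p = 0.00402), the largest difference of the 29 genes. Grin3a had 92.5%, 74.8% and 78.9% in induced mice, against 0%, 30.2% and 1.39% in control mice, with control mouse 2 apart from the other two (adjusted p = 0.0118, and 0.0524 and 0.0551 without control mouse 1 or 3). Grin2b had values in 3 induced libraries (59.7% to 76.5%) and 2 control libraries (7.43% and 6.03%) of the long fraction and was not tested. Grin2a, also not tested there, was listed at 56.8% and 86.2% in induced mice 1 and 2 and at 0%, 4.51% and 0% in control mice.

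Kainate receptors modulate release and excitability, and all 4 genes tested in the short fraction and both in the long fraction rose. Grik5, a high-affinity subunit, had 53.2%, 60.5% and 58.9% in induced mice, against 0%, 0% and 0.51% in control mice in the short fraction (57.3 ± 2.08 points, SE, adjusted p = 0.000205). Grik3 had 62.4%, 70.7% and 77.0% in induced mice, against 2.49%, 3.24% and 1.56% in control mice (adjusted p = 0.000565). These values are tightly grouped within mice of a kind and far apart between kinds. Grik4 and Grik2 had short-fraction means of 58.9% and 71.3% in induced mice, against 0.707% and 9.31% in control mice. Among long fragments Grik3 had 66.5% ± 11.2 in induced and 4.26% ± 2.26 in control mice (SD, n = 3 each; adjusted p = 0.00394). Grik2 had 51.04%, 65.2% and 83.9% in induced mice, against 17.4%, 0% and 4.44% in control mice (adjusted p = 0.0185); its call was lost without induced mouse 2 (adjusted p = 0.0642) or control mouse 1, 2 or 3 (0.0524, 0.0785 and 0.0813).

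Grid1, of the delta receptors, whose products organise synapses, rose in both fractions. It had 61.2%, 68.5% and 78.5% in induced mice, against 3.99%, 2.66% and 1.06% in control mice among short fragments (adjusted p = 0.000873). Long fragments gave close values, with Grid1 at 73.1% ± 5.39 in induced and 2.47% ± 1.86 in control mice (SD, n = 3 each; adjusted p = 0.000656). The scaffold gene Grid2ip had 70.01% in induced and 3.73% in control mice in the short fraction (adjusted p = 0.00152).

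Metabotropic glutamate receptors signal through G proteins, and Grm7 and Grm8, which act on nerve terminals, rose in both fractions. Grm7 had 61.1%, 60.4% and 61.8% in induced mice, against 5.04%, 9.26% and 16.7% in control mice in the short fraction (adjusted p = 0.000666). Among long fragments it had 70.5%, 80.3% and 89.2% in induced mice, against 4.48%, 41.6% and 6.78% in control mice (adjusted p = 0.0285). Control mouse 2 was again apart there, and the long-fraction call was lost without any of the other 5 mice, with adjusted p = 0.0596, 0.0932 and 0.0924 without induced mouse 1, 2 or 3 and 0.0988 and 0.107 without control mouse 1 or 3. Grm8 had 66.6% ± 19.2 in induced and 2.70% ± 4.44 in control mice (SD, n = 3 each) among short fragments; the call (adjusted p = 0.0124) was lost without control mouse 1 or 2 (0.0594 and 0.0570). Among long fragments it had 64.5% ± 5.03 and 2.98% ± 1.90 in induced and control mice (adjusted p = 0.000772).

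Grm4 was methylated in control mice already. It had 80.6%, 86.2% and 85.7% in induced mice, against 75.9%, 55.2% and 49.1% in control mice in the short fraction, and 90.5%, 89.4% and 83.1%, against 63.8%, 49.8% and 71.6%, in the long fraction. Every induced value lay above every control value, yet neither difference (24.1 and 25.95 points) passed (adjusted p = 0.103 and 0.0545). The calls depended on the fit. Among short fragments Grm4 passed in 1 fit over both fractions (adjusted p = 0.0363) and without control mouse 1 (0.00976). The long-fraction difference passed on the logit scale (adjusted p = 0.0270), with a variance trend and robust moderation (0.0442) and in the fit over both fractions (0.0243).

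GABA-A receptors are the chloride channels of fast inhibition, and 6 of 7 genes tested in the short and 2 of 3 in the long fraction rose. Gabrb1 had 87.6%, 83.7% and 71.8% in induced mice, against 4.6%, 3.88% and 7.85% in control mice in the short fraction (75.6 ± 4.62 points, SE, adjusted p = 0.000602). Gabrg3 had 74.8%, 65.7% and 78.1% in induced mice, against 0.25%, 0.74% and 6.08% in control mice (adjusted p = 0.000494). Both are subunit genes with a neighbouring subunit gene. Gabrb1 lies next to Gabra4 on chromosome 5, with 1 protein-coding gene between Gabra4 and Gabra2, and Gabra5 lies next to Gabrg3 on chromosome 7. Within the chromosome 5 group the short-fraction induced means were 81.03%, 71.8% and 49.8% for Gabrb1, Gabra4 and Gabra2, against 5.44%, 5.19% and 10.2% in control mice. On chromosome 7 they were 69.6% and 72.8% for Gabra5 and Gabrg3, against 12.8% and 2.36% in control mice. Each of these genes rose among short fragments.

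Among long fragments Gabra5 had 64.7% ± 10.2 in induced and 8.54% ± 5.61 in control mice (SD, n = 3 each; adjusted p = 0.00545). Gabra2 had 71.7%, 53.7% and 60.5% in induced mice, against 7.24%, 37.2% and 2.18% in control mice and did not pass (adjusted p = 0.0540). It passed with a variance trend and robust moderation (adjusted p = 0.0427), in 1 fit over both fractions (0.00346) and without control mouse 2 (0.0223). Gabrb2 had 32.6%, 42.7% and 87.8% in induced mice and 0.49% and 3.08% in 2 control mice among long fragments and was not tested.

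The X-linked genes varied with the mouse. Gabre, a GABA-A subunit gene, had 84.8%, 41.4% and 80.1% in induced mice, against 30.8%, 0.79% and 67.1% in control mice in the short fraction and did not pass (adjusted p = 0.385). Htr2c, a serotonin receptor known from brain, had 87.2%, 81.4% and 93.8% in induced mice, against 67.1%, 21.5% and 53.9% in control mice in the long fraction (adjusted p = 0.122). Both were lowest among control mice in mouse 2, the mouse with X-linked promoters near 5%. The part of that mouse's X-linked levels in these results was not tested. Gabrq was listed at 77.0% and 73.3% in 2 induced mice and at 35.7% and 33.3% in control mice 1 and 3 in the short fraction.

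The GABA-B receptor, a G protein-coupled receptor, needs the products of both Gabbr1 and Gabbr2. Gabbr2 had 60.3%, 71.7% and 88.3% in induced mice, against 2.75%, 1.42% and 1.45% in control mice in the short fraction (71.6 ± 7.67 points, SE, adjusted p = 0.00278). It had 54.3%, 70.9% and 87.6% in induced mice, against 0.64%, 1.35% and 0.96% in control mice in the long fraction (adjusted p = 0.00819). Induced mouse 1 was lowest and induced mouse 3 highest both times. Gabbr1 had 28.3%, 41.7% and 10.1% in induced mice, against 3.41%, 2.97% and 2.84% in control mice in the short fraction and did not pass (adjusted p = 0.140). It did pass on the logit scale (adjusted p = 0.0294), in 1 fit over both fractions (0.0188) and without induced mouse 3 (0.0180). Among long fragments it had 1.98%, 6.93% and 3.89% in induced mice, against 0%, 0% and 1.79% in control mice (adjusted p = 0.194). Levels in induced mice did not overlap between the partner genes in either fraction; the difference between the genes was not tested. The Gabbr2 window printed above holds 46 CpGs and the Gabbr1 window 18.

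Glra1, the glycine receptor subunit of spinal cord and brain stem, had 56.5%, 40.2% and 74.8% in induced mice, against 3.31%, 0% and 0% in control mice in the short fraction (adjusted p = 0.0128). Without control mouse 1, 2 or 3 it did not pass (adjusted p = 0.0552, 0.0577 and 0.0591).

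Nicotinic acetylcholine receptors are built from subunits used in muscle and subunits used in neurons. In the short fraction 5 of 8 genes rose. Chrnb4, of ganglionic receptors, had 92.9%, 100% and 90.3% in induced mice, against 0%, 0% and 40.0% in control mice, with control mouse 3 apart (81.04 ± 12.9 points, SE, adjusted p = 0.0103). Its neighbour Chrna3 had 96.04%, 68.9% and 82.4% in induced mice, against 4.89%, 13.96% and 5.88% in control mice (adjusted p = 0.00269). On the far side of Chrna3 lies Chrna5, which was at 0% in all 3 control mice and was not listed in the induced libraries, so no comparison could be made for it. The brain subunit genes Chrna4 and Chrnb2, whose products form the commonest brain receptor, had 69.7% ± 7.82 and 44.2% ± 2.75 in induced mice, against 1.98% ± 1.57 and 0.0933% ± 0.162 in control mice (SD, n = 3 each; adjusted p = 0.000666 and 0.000179). Chrna7 had 54.7%, 62.8% and 74.2% in induced mice, against 1.54%, 4.06% and 1.08% in control mice (adjusted p = 0.0015). Among long fragments Chrna7 had 40.8%, 60.4% and 71.04% in induced mice, against 3.05%, 1.58% and 1.76% in control mice (adjusted p = 0.0126). That call was lost without induced mouse 2 (adjusted p = 0.0506) or control mouse 1, 2 or 3 (0.0597, 0.0614 and 0.0609).

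The muscle subunit genes were the nicotinic genes that did not pass. Chrna1 had 87.7%, 100% and 94.2% in induced mice, against 89.3%, 90.6% and 93.6% in control mice (adjusted p = 0.641), with overlap. Chrne, the subunit of adult muscle, had 94.6%, 92.7% and 89.2% in induced mice, against 92.2%, 82.2% and 83.3% in control mice (adjusted p = 0.309). Both promoters were thus methylated in every mouse. Chrnb1 was the other way in the short fraction. It had 28.2%, 1.54% and 4.69% in induced mice, against 0%, 0% and 1.79% in control mice (adjusted p = 0.472), with induced mouse 1 apart. Among long fragments Chrnb1 was not tested. It was listed there at 41.6% and 26.7% in induced mice 2 and 3 and at 15.6% and 18.8% in control mice 2 and 3.

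Muscarinic receptors bind acetylcholine and signal through G proteins. Chrm4, known from striatum, had 60.99%, 67.7% and 76.0% in induced mice, against 0.85%, 1.08% and 0.16% in control mice in the short fraction (67.5 ± 4.10 points, SE, adjusted p = 0.000598). Chrm3, which mediates secretion and smooth muscle contraction in gut, had 0%, 4.02% and 6.16% in induced mice, against 0% in all 3 control mice (adjusted p = 0.278, and 0.0159 without induced mouse 1). Among long fragments Chrm3 had 11.8%, 6.52% and 6.61% in induced mice, against 0% in all 3 control mice. That rise of 8.32 ± 1.67 points (SE, adjusted p = 0.0285) was the smallest among the receptor genes of that fraction. The difference was 8.32 to 9.22 points but no longer passed without induced mouse 2 or 3 (adjusted p = 0.0515 and 0.0515) or control mouse 1, 2 or 3 (0.107 each). Chrm1 was listed at 37.2%, 19.96% and 81.7% in induced mice and at 0% in 1 control mouse among long fragments.

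Serotonin receptors rose in 6 of 6 genes tested in the short and 3 of 4 in the long fraction. Htr7 had 72.7%, 62.8% and 81.0% in induced mice, against 1.85%, 3.74% and 1.21% in control mice in the short fraction (69.9 ± 5.01 points, SE, adjusted p = 0.000863). It had 74.7%, 67.8% and 65.9%, against 0.25%, 14.2% and 1.88%, in the long fraction (adjusted p = 0.0019). Htr7 therefore was without overlap in both fractions. Htr1a, the autoreceptor of serotonin neurons, had 66.01% ± 5.25 in induced and 4.55% ± 3.01 in control mice (SD, n = 3 each; adjusted p = 0.000454), and Htr1f had the smallest rise of the class among short fragments, with 67.5%, 58.3% and 56.7% in induced mice, against 15.3%, 11.6% and 11.0% in control mice. Htr1d and Htr6 had short-fraction means of 59.3% and 65.4% in induced mice, against 1.67% and 5.003% in control mice.

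Htr1b had 85.2%, 51.3% and 76.6% in induced mice, against 22.4%, 21.9% and 18.8% in control mice in the short fraction (adjusted p = 0.0200, and 0.0746 without induced mouse 3 and 0.0775, 0.0765 and 0.0828 without control mouse 1, 2 or 3). Among long fragments it had 51.95%, 85.7% and 78.8%, against 2.80%, 1.52% and 2.12% (adjusted p = 0.00999, and 0.0514, 0.0522 and 0.0519 without control mouse 1, 2 or 3). Its control level was thus 21.0% ± 1.93 among short and 2.15% ± 0.640 among long fragments (SD, n = 3 each). Htr6 had the opposite order, with 5.003% ± 1.22 among short and 25.1% ± 6.02 among long fragments in control mice. Its long-fraction level of 68.03% in induced mice (adjusted p = 0.0449) no longer passed, at differences of 37.15 to 46.35 points, without induced mouse 2 or 3 (0.133 and 0.117) or control mouse 1, 2 or 3 (0.111, 0.151 and 0.157). Htr4, a serotonin receptor of the gut, was listed at 0% and 9.03% in 2 induced mice and at 0% in 1 control mouse of the long fraction.

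Dopamine receptors rose in 3 of 3 genes tested in the short and 1 of 1 in the long fraction. Drd4 had 70.1%, 57.3% and 70.5% in induced mice, against 0%, 3.92% and 0.6% in control mice (64.5 ± 4.27 points, SE, adjusted p = 0.000718). Among short fragments Drd5 began from an intermediate level that was alike between mice. It had 65.5%, 65.2% and 74.6% in induced mice, against 31.9%, 30.5% and 33.2% in control mice (adjusted p = 0.00121). The long fraction, where Drd5 was not tested, listed 76.1%, 77.4% and 77.6% in induced mice and 62.9% and 58.9% in control mice 2 and 3. Drd2, the receptor targeted by antipsychotic drugs, had 69.6% ± 8.75 in induced and 9.69% ± 4.32 in control mice among short fragments and 66.3% ± 15.2 and 2.47% ± 1.59 among long fragments (SD, n = 3 each; adjusted p = 0.00155 and 0.00836). Drd1a, in 5 short-fragment libraries, had 48.1% and 82.6% in induced mice and 0% to 5.36% in control mice.

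Alpha-adrenergic receptors, which answer to noradrenaline and adrenaline, rose in 5 of 6 genes in the short and 5 of 5 in the long fraction. Adra1d had 72.6%, 75.3% and 89.1% in induced mice, against 4.36%, 4.39% and 3.51% in control mice in the short fraction (74.9 ± 4.83 points, SE, adjusted p = 0.000674). Adra2c had 64.1%, 69.9% and 75.6% in induced mice, against 2.13%, 1.40% and 3.10% in control mice (adjusted p = 0.000344). Adra1b had 10.3%, 36.4% and 27.2% in induced mice, against 0% in all 3 control mice, and did not pass (adjusted p = 0.0765). It passed on the logit scale (adjusted p = 0.00290), with a variance trend and robust moderation (0.0466), in 1 fit over both fractions (0.0217) and without induced mouse 1 (0.00588). In the long fraction Adra1b rose, with 59.3%, 62.5% and 43.3% in induced mice, against 5.95%, 12.9% and 8.20% in control mice (adjusted p = 0.00802). Adra2b had 61.1% and 56.5% in induced mice, against 4.03% and 2.35% in control mice, in the short and the long fraction (adjusted p = 0.0194 and 0.0226). Among short fragments it no longer passed without control mouse 1, 2 or 3 (0.0771, 0.0703 and 0.0820), nor among long fragments without induced mouse 2 (0.0514) or control mouse 1, 2 or 3 (0.0823, 0.0936 and 0.0930). The long-fraction rises of Adra1d (77.8% in induced and 8.09% in control mice) and Adra2c (59.9% and 2.55%) did not pass without any 1 of the same 4 mice, with adjusted p of 0.0559 to 0.0674 and 0.102 to 0.118. The differences were then 67.35 to 71.63 points for Adra1d and 56.09 to 58.35 points for Adra2c, against 69.68 and 57.35 points with all mice.

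Of the beta-adrenergic receptors, Adrb1 rose, and the call for Adrb3 depended on the fit; the difference between them was not tested. Adrb1, the receptor of heart muscle, had 54.5%, 71.2% and 79.9% in induced mice, against 1.19%, 0.92% and 3.15% in control mice in the short fraction (adjusted p = 0.00265), and 78.3%, 81.9% and 77.8%, against 0%, 0.43% and 2.06%, in the long fraction (78.5 ± 1.35 points, SE, adjusted p = 8.79e-05). Adrb3, of fat tissue, had 28.5%, 48.7% and 76.5% in induced mice, against 4.36%, 5.04% and 0% in control mice, without overlap but with a wide spread, and did not pass (adjusted p = 0.0624). It passed on the logit scale (adjusted p = 0.0244), with a variance trend and robust moderation (0.0363) and without induced mouse 1 or 3 (0.0223 and 0.0444). The kinase genes that share the prefix also differed, with Adrbk1 at 0.113% in induced and 0.170% in control mice (adjusted p = 0.797) and Adrbk2 at 71.5% ± 11.6 and 2.36% ± 3.79 (SD, n = 3 each; adjusted p = 0.00197).

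**Figure D2:**
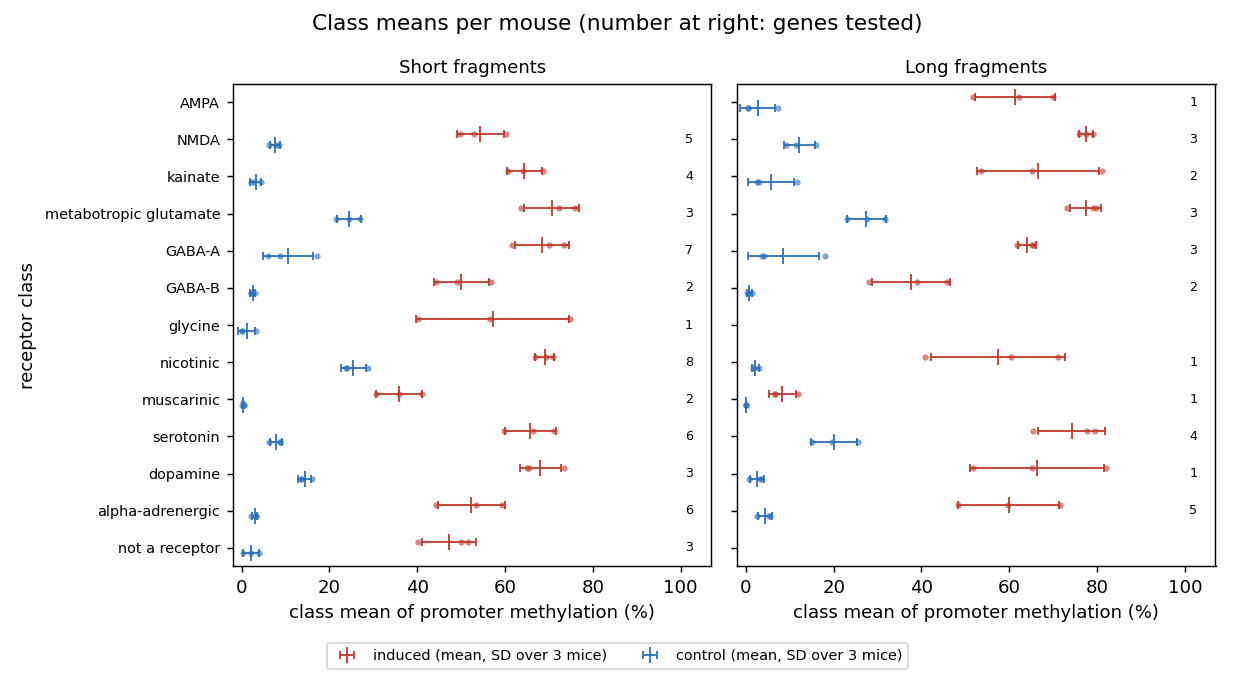
Mean promoter methylation in percent over the tested genes of the receptor classes shown, 1 point per mouse, with bars for the mean and SD over 3 mice and the number of genes at the right. Class means of induced mice lay above those of control mice in every class shown; the muscarinic class was lowest in induced mice, at 35.8% among short and 8.32% among long fragments.

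Classes that joined genes that rose with genes that did not had both high and low means in induced mice. In the short fraction the highest were metabotropic glutamate (70.6% ± 6.22), nicotinic (69.0% ± 2.12), GABA-A (68.4% ± 6.15) and dopamine receptors (68.0% ± 4.70). These neighbours in the order lay within their SD of each other (n = 3 mice). Low means were found for GABA-B (50.1% ± 6.26) and muscarinic receptors (35.8% ± 5.29), each with a gene that did not pass. The metabotropic glutamate, nicotinic and GABA-A classes also held such genes. Of these, Grm4, Chrna1 and Chrne were methylated in control mice already. Control class means ran from 0.348% (muscarinic) to 25.4% (nicotinic), the class that holds Chrna1 and Chrne.

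Whether the gain depended on fragment size was asked with the 27 receptor genes listed in all 12 libraries. Of these 22 rose in both fractions and 2 (Gabbr1 and Grm4) in neither. A rise in the short fraction only was called for 1 (Gabra2), and in the long fraction only for 2 (Adra1b and Chrm3). Shares of all genes with these labels are not given here. These labels depended on the fit: 1 fit over both fractions called 26 of the 27 in each fraction, where 29.5% and 31.3% of all genes rose, with Chrm3 short of the threshold among short fragments (adjusted p = 0.235) and Gabbr1 among long fragments (0.850). The difference in call is not itself a difference in change, which was tested as an interaction in 1 limma fit with the mouse as a block, over 5309 genes. In it 2 receptor genes passed, where 4.71% of all genes did; 1 had a larger rise among long fragments (2.64% of all genes) and 1 a smaller (2.07%). The changes differed by less than 10 points in 15 of 27 genes. The share of all genes within 10 points is not given here. The median difference, long minus short, was 1.88 points, against 0.0433 points over all 5309 genes.

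Adra2a, the alpha-2A adrenergic receptor, had 20.98%, 23.3% and 25.4% in induced mice, against 0.22%, 0.39% and 1.10% in control mice among short fragments (adjusted p = 0.000459). Among long fragments it had 43.6%, 45.5% and 61.1% in induced mice, against 0% in all 3 control mice (adjusted p = 0.00448). The rise was larger among long fragments in these libraries, by 27.4 ± 5.26 points (SE, interaction adjusted p = 0.0200). It did not pass once control mouse 1, 2 or 3 was left out (adjusted p = 0.120, 0.129 and 0.121), with a difference of 27.2 to 27.6 points.

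Grin2c went the other way, and its control level differed between the fractions. Among long fragments it had 65.8%, 57.7% and 78.4% in induced mice, against 27.2%, 17.7% and 31.7% in control mice (adjusted p = 0.0163), where the short-fragment control values were 1.2% or less. The difference between the changes, long minus short, was -35.3 ± 7.42 points (SE, interaction adjusted p = 0.0286). This call was lost without induced mouse 2 (adjusted p = 0.0657) or control mouse 1, 2 or 3 (0.165, 0.0812 and 0.164). The long-fraction difference of 41.8 points was 37.84 to 44.85 points but no longer passed without induced mouse 1 (adjusted p = 0.0503) or control mouse 1, 2 or 3 (0.0686, 0.0627 and 0.0521). Grin3b, Adra1b and Gabbr1 had differences of 26.1, 21.4 and -19.97 points between the fractions and did not pass (interaction adjusted p = 0.227, 0.336 and 0.336).

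**Figure D3:**
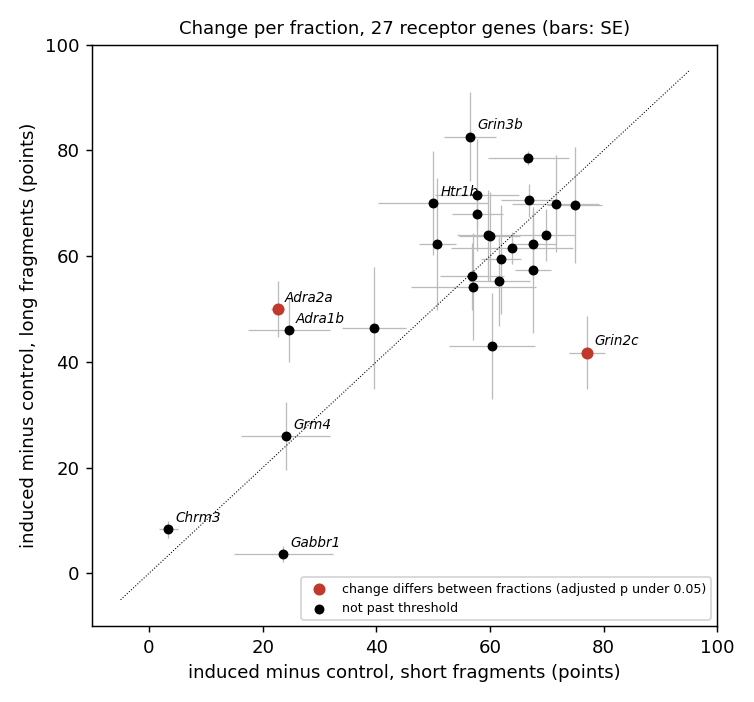
Induced minus control in percentage points among long fragments (vertical axis) against short fragments (horizontal axis) for the 27 receptor genes in all 12 libraries, with bars for the SE per fraction. Adra2a (22.6 and 50.04 points in the short and the long fraction) and Grin2c (77.1 and 41.8 points), in red, passed the interaction test; most other genes lie near the dotted line of equal change.

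Most genes listed in part of a fraction's libraries had higher levels in induced mice. Of the 6 such genes in the short fraction 5 had values in both groups, and in 5 every induced value lay above every control value, as in 40.6% of all 822 such genes. Among long fragments 21 of 24 had values in both groups and 18 of these had that order, as did 36.9% of all 2233 such genes. Of the 18, 4 rest on 1 library against 1, an order that 49.7% of all genes listed so had; Adrbk1 and Htr4 were among those that did not. A further 8 genes had no value among short fragments and 16 had none among long fragments. The 12 genes with a value in all 6 libraries of neither fraction included Gria1, Gria3, Gria4, Grin2b, Gabrb2, Gabrq, Chrna5, Chrm1, Drd1a, Htr4 and Htr5a. Several RefSeq promoters were listed for 4 of the genes among short and 7 among long fragments, and within a gene they had the same value in every library.

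Other genes of the same signalling systems rose to differing extents. For scale, 27.6% of all genes tested rose among short fragments and 23.2% among long fragments. Transporters that load or clear transmitters rose in 11 of 15 tested genes of the short fraction and 6 of 6 of the long one, such as the choline transporter Slc5a7 (73.7% ± 5.72 in induced and 1.87% ± 0.766 in control mice among short fragments) and the vesicular GABA transporter Slc32a1 (69.9% and 0.897%). Proteins that anchor or modify the receptors rose in 11 of 20 and 7 of 13 genes, among them the kainate receptor partner Neto1 (69.3% and 3.64%, short) and the scaffold Shank3 (78.1% and 0.563%, long). Purine, histamine and adenosine receptors rose in 5 of 10 and 5 of 8 genes, with P2rx5 at 78.5% and 0.187% and Adora2a at 67.0% and 1.92% in the short fraction.

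Enzymes that make transmitters rose in 3 of 7 and, by limma, 0 of 2 genes (unadjusted p was under 0.05 for 0 of the 2). The GABA-forming enzyme Gad1 had 74.1% in induced and 4.03% in control mice and Chat, which makes acetylcholine, 62.0% and 4.28%, while Srr, which makes D-serine, had 0.0467% in induced and 0.02% in control mice among long fragments (adjusted p = 0.757). Enzymes that break transmitters down rose in 2 of 6 and 1 of 3 genes, near the shares of all genes tested (27.6% and 23.2%), Ache among them (61.9% and 1.85%, short; 59.9% and 1.31%, long). None of the tested genes on these 5 lists fell (limma; unadjusted p under 0.05 with a lower level for 0). Median differences of the 5 lists in the short fraction ran from 2.82 points (breakdown) to 49.4 points (transport), against 0.5 points over all genes tested.

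Promoters of cell type markers are given as a description, since methylation is not expression. They could not check the cells, because control list means of the short fraction were at most 8.04% for every cell type. Over 10 genes of the short fraction, colon epithelium markers had list means of 0.732% to 2.63% in induced and 0.127% to 0.754% in control mice. Ephb3 alone of them rose (4.25% and 0.12%). The shares of all genes tested that rose, to set beside the marker counts, were 27.6% (short fragments) and 23.2% (long fragments). Markers of enteric neurons and glia rose in 9 of 9 genes (59.9% to 68.4% in induced, 2.43% to 4.16% in control mice) and of stroma, muscle and endothelium in 7 of 8 (57.3% to 67.7% and 6.78% to 8.04%). By limma the long-fraction counts were 0 of 11 (unadjusted p under 0.05 for 1), 3 of 3 and 3 of 3, and for blood cells 0 of 1 among short fragments (unadjusted p under 0.05 for 0) and 1 of 1 among long fragments. Epithelium list means of the long fraction were 3.29% to 5.62% in induced and 2.18% to 2.60% in control mice. Krt18 stood above these list means, at 30.2% in induced and 22.8% in control mice, a difference that did not pass (limma, adjusted p = 0.163). Ephb3 had 10.45% in induced and 0% in control mice there and did not pass either (adjusted p = 0.142). The part of other cell types in the receptor results was not tested.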

How the data were processed

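The authors deposited 1 table per library with the mean CpG methylation fraction, from 0 to 1, per gene and per RefSeq promoter, per the file headers. Per the labels' protocols, MspI fragments were sized on gels, given extra rounds of bisulfite conversion, amplified and read on an Illumina instrument. The sources used here give no aligner, build, window for promoters, minimum coverage or rate of conversion. Bisulfite also reads hydroxymethylcytosine and unconverted cytosine as methylation.

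Fractions were multiplied to percent. Genes in all 6 libraries of a fraction were compared with limma 3.58.1 (lmFit, eBayes) in R 4.3.3, induced minus control, with Benjamini-Hochberg adjustment over the fraction and a threshold of 0.05; every adjusted p comes from these fits. SDs are over mice. The interaction fit took the mouse as a random block over the genes of all 12 libraries (consensus correlation 0.0674), since both libraries of a mouse share its DNA. The test was checked on simulated data. No pair of libraries shared more than 1.54% of values above 0. Sequences are from RefSeq (GRCm38.p6), matched by gene ID. Python 3.11.15, pandas 2.3.3 and matplotlib 3.10.9 were used for summaries and figures. Genes named were, per fraction, the 12 largest changes past the threshold, any falls, the largest and smallest change of each class, genes at 50% or more in control mice, X-linked genes, genes past the interaction and up to 2 per companion list; others are named to account for the genes. A few genes are not reported here by name, though counts and means include them. Members and lists were chosen with earlier results of these data known.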

Additional observations from a re-analysis of the deposited data

Results flagged for a closer look

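For 2 receptor genes the change differed between the size fractions by a test of the difference itself. For Adra2a the rise among long fragments exceeded that among short fragments by 27.41 points, with changes of 50.04 and 22.62 points. For Grin2c the difference was -35.32 points, with changes of 41.77 points among long and 77.09 points among short fragments; the control level was 25.55% among long and 0.54% among short fragments. Over all genes in 12 libraries 4.71% passed the same test, and both calls were lost when any 1 control mouse was left out. Groups of 3 mice are too small for the test of single outlying samples.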

How the results depend on the processing

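None of the alternatives run gave a receptor gene with a lower level in induced mice past the threshold. The count of receptor genes that rose in the short fraction (43 of 55) was 26 of 27 in 1 fit over both fractions, which tests fewer genes, and 38 to 48 under the logit scale, the promoter fit, the other variance model, the 10-point minimum, the wider gene set, the replicate block and the receptors-only set, which was added after the data were seen. The wider gene set, with at least 2 libraries per group, gave 48 of 60, and the receptors-only set 41 of 52. Leaving out 1 mouse gave 39 to 46 of 55. In the long fraction (25 of 29) these settings gave 24 to 30. The exceptions were the replicate block (10 of 29) and leaving out 1 mouse (14 to 23 of 29). The 30 is of 39 genes in the wider gene set, and 1 fit over both fractions gave 26 of 27. The count was 14 without control replicate 1 or control replicate 3. Shares over all genes with the replicate block or without 1 mouse are not given here. The cause of the lower long-fraction counts was not tested. The replicate numbers name different mice. Deviations of same-numbered induced and control libraries had low correlations over genes. They were -0.0498 to 0.0736 in the short and 0.00102 to 0.0366 in the long fraction. In the short fraction 2 of 6 libraries, and in the long fraction 5 of 6, correlated best with their own number. Deviations within a group of 3 depend on each other, so these counts cannot decide whether same-numbered mice share anything. The mean difference over receptor genes, 50.4 and 55.3 points, was 62.5 and 65.5 points with the median over genes, and 47.8 to 51.9 and 52.4 to 58.5 points without 1 mouse. The count of genes whose change differed between fractions (2) was 2 with no replicate block and on the logit scale, and 0 to 5 without 1 mouse: 0 without control replicate 1, 2 or 3, 1 without induced replicate 2 and 5 without induced replicate 3. The change of Chrna1 (2.81 points, not past the threshold) was -0.21 to 5.945 points without 1 mouse, and negative only without induced replicate 2. The depth behind each level is unknown, so how far low coverage limits single genes cannot be given.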
